A study of Mus musculus with 6 samples.

Results

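The angiogenic growth factors and peptides examined here are the 10 genes Vegfa, Vegfb, Vegfc, Pgf, Adm, Apln, Esm1, Angptl4, Angpt1 and Angpt2, which were taken by symbol from the 43043 genes listed in each sample's table. Their RNA was measured in cultured D4M-3A cells, a mouse melanoma line. The study compared 3 control (Ctrl) samples, transduced by lentivirus with an empty CRISPR-Cas9 construct, with 3 Nfkbiz knockout (Nfkbiz KO) samples, transduced with a construct against Nfkbiz. Nfkbiz encodes IκBζ, a nuclear cofactor of NF-κB, and the comparison asks which genes of a melanoma cell depend on it. All cells were grown in the same medium and were selected with puromycin after transduction, with no other treatment of these cells named. Both groups carried Cas9. The methods list several CRISPR constructs and do not say which were used in these cells. The knockout cells are not described as a single clone. Each group came from its own transduction, so differences between the transduced populations and the loss of IκBζ cannot be told apart.

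Tumor cells recruit blood and lymph vessels by secreting ligands whose receptors sit on endothelial cells. Vegfa acts mainly through the receptor Kdr, Vegfb and Pgf through Flt1, and Vegfc through Flt4, with the neuropilins Nrp1 and Nrp2 as co-receptors. Adrenomedullin (Adm) signals through Calcrl joined to Ramp2 or Ramp3, and apelin (Apln) through Aplnr. Angpt1 activates the endothelial receptor Tek, which stabilizes vessels, and Angpt2 can oppose it. Vegfa, Adm, Apln and Angptl4 are known to be transcribed in response to hypoxia through the hypoxia-inducible factors (HIF).

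Promoter sequence is shown first because the HIF proteins bind a short core, ACGTG or GCGTG, and IκBζ acts with NF-κB at κB motifs. RefSeq promoter windows (250 bases before to 50 after a start site, build GRCm38.p6) were available for 7 of the 10 genes, in 9 windows. For Angptl4, Angpt1 and Angpt2 no window was given. Both strands were searched, and 5 of the 9 windows (1 each of Vegfa, Vegfb, Pgf, Adm and Esm1) held at least 1 of the 2 cores, compared with 43.8% of all 32851 windows. Below, capitals mark the HIF core or, in the last line, the κB motif, and all sequences are written on the strand of the gene.
Adm, chr7:110627555-110627584, plus strand: tttagaagcaagCACGCtggagagggagga
Adm, chr7:110627591-110627620, plus strand: ggcaaatctgacCACGCccaccgtccgccc
Esm1, chr13:113209600-113209629, plus strand: tggatggcagcaGCGTGttaatccagcctt
Vegfa, chr17:46025357-46025386, minus strand: ggagtgcgtgccCACGTcagagagcaacat
Vegfa κB, chr17:46032476-46032505, minus strand: tagtggcctaGGGGCTCCCCgaaaggcggt
The Adm and Esm1 lines are shown because these genes had large changes in opposite directions, and the Vegfa lines because they hold the single ACGTG and the single κB match among the members. Adm had 2 GCGTG cores, at bases -90 to -86 and -54 to -50 from its start site, both on the opposite strand, so that they read CACGC here. In Esm1 the core lay at -47 to -43. The first Vegfa piece holds ACGTG on the opposite strand at -211 to -207, and GCGTG in small letters 7 bases upstream of it. The κB match was at -118 to -109 in the other Vegfa window, which held neither core. Vegfa is on the minus strand, so the start site of that other window (base 46032377) lies upstream of the first (base 46025163). The HIF cores of Vegfa thus belong to the downstream start site. Windows of Apln and Vegfc held neither core. A κB motif was found in 1 of the 9 windows and in 4.51% of all windows, and the STAT motif TTCNNNGAA in 0 of the 9 and in 8.3% of all windows. Such matches describe the letters of these windows and are not evidence of binding.

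Each sample had 32219900 to 44927203 gene reads, and a count of 0 allows a level of up to 0.0668 to 0.0931 CPM (reads scaled to library size), for counting error only. Nfkbiz itself had 69.1, 75.2 and 63.4 TPM (a level scaled for transcript length and depth) in Ctrl replicates 1, 2 and 3. In Nfkbiz KO it had 34.8, 34.7 and 35.1 TPM, so its RNA was lower but still present. The study checked the loss of the IκBζ protein by immunoblot, and RNA does not measure it. Counts differed more among the Ctrl samples (chi-square per degree of freedom 27.8 to 71.4 for a pair) than among the Nfkbiz KO samples (3.53 to 6.24), and the 2 largest values were those of Ctrl replicate 1. Without that sample, 2 members were higher and 5 lower, as with it. Of 8 melanocyte markers, 7 were under 1 TPM in every sample, and Sox10 and Tyr had 0 reads, although the cells are labelled as melanoma. Mitf, the exception, was at 0.951 ± 0.260 TPM (SD, n = 3) in Ctrl against 0.953 ± 0.190 TPM in Nfkbiz KO. Among 10 endothelial markers, 9 were under 1 TPM in every sample, and Cldn5 and Tie1 had 0 reads. The summed endothelial level was 0.797 to 1.68 TPM in Ctrl and 1.65 to 2.01 TPM in Nfkbiz KO. The exception was Cdh5, named after its values were seen, at 0.548 ± 0.139 TPM (SD, n = 3) in Ctrl against 1.54 ± 0.313 TPM in Nfkbiz KO. Leukocyte markers (7 of 8 under 1 TPM, Cd3e at 0 reads) summed to 1.83 to 2.67 TPM in Ctrl and 1.84 to 4.14 TPM in Nfkbiz KO.

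Loss of IκBζ was accompanied by lower RNA of Vegfa, Vegfc, Adm, Apln and Angptl4 and higher RNA of Esm1 and Angpt1, whereas Vegfb, Pgf and Angpt2 did not pass the test. Reads on each gene were compared with edgeR's quasi-likelihood test, and p was adjusted by Benjamini-Hochberg over the 14419 genes that passed a filter on low counts. All 10 members passed that filter. At an adjusted p of 0.05 or less, 5 members were lower in Nfkbiz KO, a direction called for 18.4% of all genes tested. Another 2 were higher, as were 18.2% of all genes. Both directions together gave 7 of 10 members and 36.6% of all genes. On the log2 CPM scale, the 3 samples of one group all lay outside the range of the other for 7 members and for 48.4% of all genes. By the study's own criteria (over 2-fold, means more than 4 apart, taken here as TPM, and the same limit on adjusted p), 3 members were called, Adm and Apln as lower and Esm1 as higher. The same criteria called 1.79% of all genes. These 3 are among the genes that the study listed from the same samples, so their calls are not independent evidence. The median log2 fold change (Nfkbiz KO against Ctrl) was -0.31 over the members and -0.02 over all genes. In bulk RNA, fewer expressing cells and less RNA per cell cannot be told apart.

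**Figure D1:**
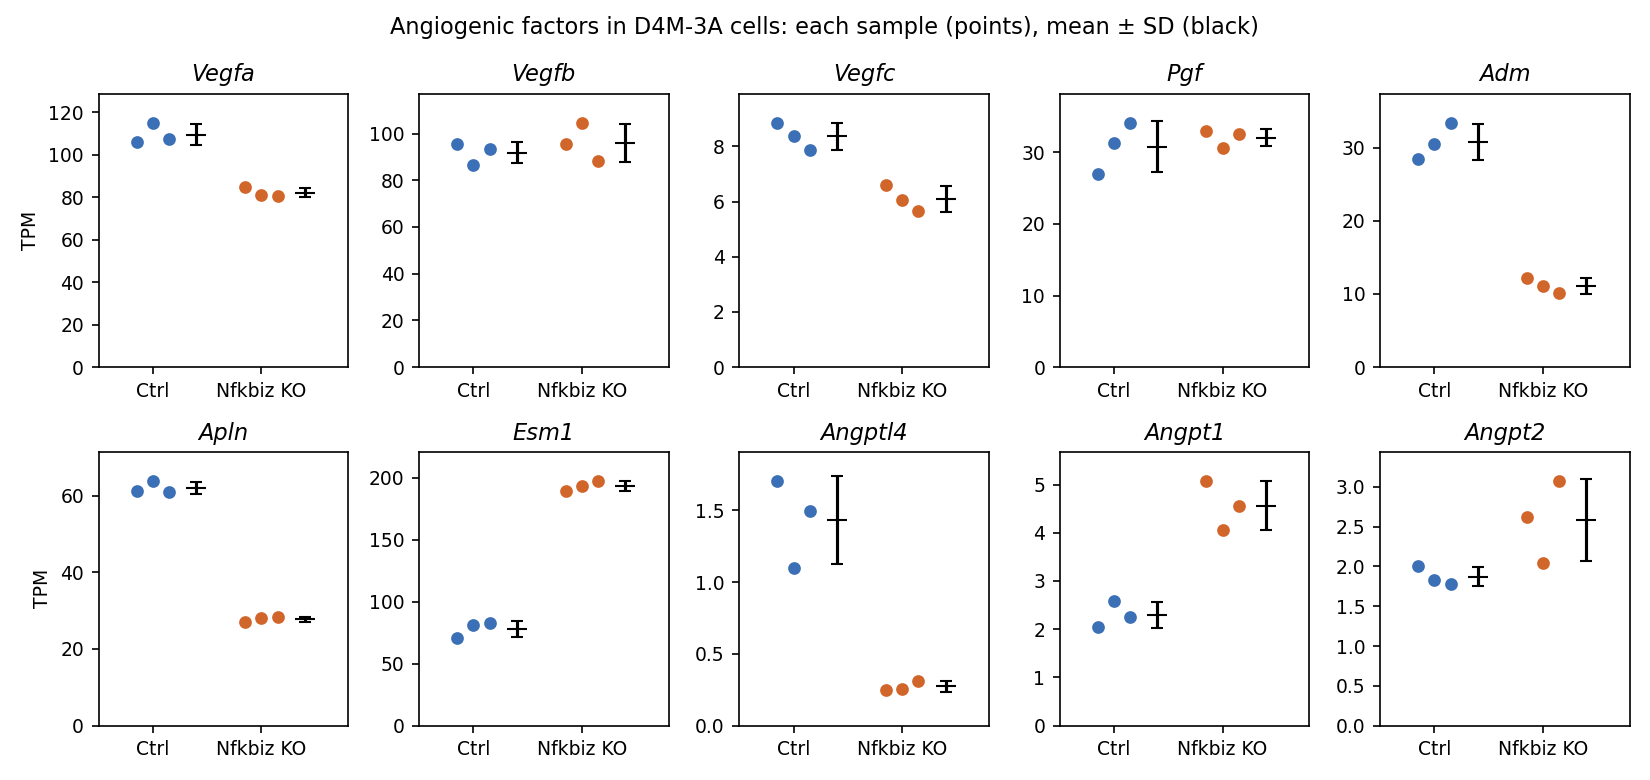
Level of each of the 10 angiogenic factors in TPM (linear axes from 0, with a scale of its own for each gene) in the 3 Ctrl (blue) and 3 Nfkbiz KO (orange) samples, in order of replicate number. Black marks give the mean ± SD. Vegfa, Vegfc, Adm, Apln and Angptl4 lie lower and Esm1 and Angpt1 higher in every Nfkbiz KO sample, and the groups of Vegfb and Pgf overlap.

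The factors spanned a wide range of levels on the TPM scale, which is per transcript length. In Ctrl, Vegfa was the most abundant, followed by Vegfb, Esm1, Apln, Pgf, Adm, Vegfc, Angpt1, Angpt2 and Angptl4. Pgf and Adm, both at a mean of 30.8 TPM, overlapped between samples, and no other neighbours in this order did. In Nfkbiz KO the order was Esm1, Vegfb, Vegfa, Pgf, Apln, Adm, Vegfc, Angpt1, Angpt2 and Angptl4, with no overlap between neighbours. The summed level of all 10 was 417 ± 11.5 TPM in Ctrl against 456 ± 5.31 TPM in Nfkbiz KO (SD, n = 3). Esm1 made up 18.7% ± 0.997 of that sum in Ctrl and 42.4% ± 1.17 in Nfkbiz KO. Without Esm1, the sum was 338.9 ± 5.29 TPM in Ctrl against 262.8 ± 7.89 TPM in Nfkbiz KO. Ctrl and Nfkbiz KO samples were separated in all 3 quantities (exact permutation test, two-sided, p = 0.1, which is the minimum for 3 against 3). On the scale of log2(TPM + 1), the median difference of all genes tested was also above 0, at 0.06. The sums were not corrected for it.

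Among the ligands of the VEGF family, Vegfa and Vegfc fell while Vegfb and Pgf did not pass the test. Vegfa, the principal inducer of vessel sprouting, is on chromosome 17 of GRCm39 (46327919 to 46343309, minus strand). Its level was 106.2, 115.1 and 107.5 TPM in Ctrl replicates 1, 2 and 3 and 84.7, 81.1 and 80.9 TPM in Nfkbiz KO. Every Nfkbiz KO sample was below every Ctrl sample. Means were 109.6 ± 4.83 TPM in Ctrl against 82.2 ± 2.17 TPM in Nfkbiz KO, and the log2 fold change was -0.51 (standard error 0.050, edgeR adjusted p = 5.9e-06). This is a change of less than 2-fold, on 3616 to 6686 reads per sample, the most reads of any VEGF ligand.

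Vegfc, which drives the growth of lymphatic vessels, lies on chromosome 8 (54530257 to 54640131, plus strand). It had 8.85, 8.36 and 7.88 TPM in Ctrl against 6.59, 6.06 and 5.66 TPM in Nfkbiz KO. Its groups did not overlap either, although its level was low, with 185 to 290 reads per sample. The log2 fold change of Vegfc was -0.53 (standard error 0.12, edgeR adjusted p = 0.0038), close to that of Vegfa on far fewer reads.

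Vegfb, a ligand of Flt1 linked to fatty acid handling and coronary vessels, is on chromosome 19 (6958447 to 6965127, minus strand). Ctrl samples had 95.4, 86.7 and 93.4 TPM and Nfkbiz KO samples 95.5, 104.6 and 88.3 TPM. High and low samples were found in both groups. Its log2 fold change was -0.04 (standard error 0.081, edgeR adjusted p = 0.72). On the log2 scale of TPM the difference was 0.06, of the opposite sign. Pgf, placental growth factor, is on chromosome 12 (85213409 to 85224564, minus strand). It had 27.0, 31.3 and 34.1 TPM in Ctrl against 33.0, 30.6 and 32.6 TPM in Nfkbiz KO, with the lowest and the highest value both in Ctrl. The log2 fold change of Pgf was -0.10 (standard error 0.079, edgeR adjusted p = 0.34) from read counts and 0.06 from TPM, so no direction was given for either gene. TPM rests on exon reads, whereas the counts tested include intronic reads. The median of all genes tested also differed in sign, at -0.02 from counts and 0.06 on the scale of log2(TPM + 1). The source of the 2 signs was not tested.

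The make-up of the VEGF ligands shifted with these changes. Vegfa made up 45.6% ± 1.86 of the summed TPM of Vegfa, Vegfb, Vegfc and Pgf in Ctrl and 38.0% ± 1.35 in Nfkbiz KO. For Vegfb the share was 38.2% ± 2.15 in Ctrl and 44.3% ± 2.36 in Nfkbiz KO, which made it the most abundant of the 4 in every Nfkbiz KO sample, whereas Vegfa was in every Ctrl sample. Vegfc went from 3.48% ± 0.242 to 2.82% ± 0.156. For Vegfa, Vegfb and Vegfc all samples of one group lay on one side of the other (exact permutation test, two-sided, p = 0.1, the minimum). Pgf had 12.8% ± 1.34 in Ctrl and 14.8% ± 0.973 in Nfkbiz KO, and its groups overlapped (same exact test, p = 0.2). The summed level of the 4 was 240.6 ± 2.80 TPM in Ctrl against 216.5 ± 7.98 TPM in Nfkbiz KO.

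**Figure D2:**
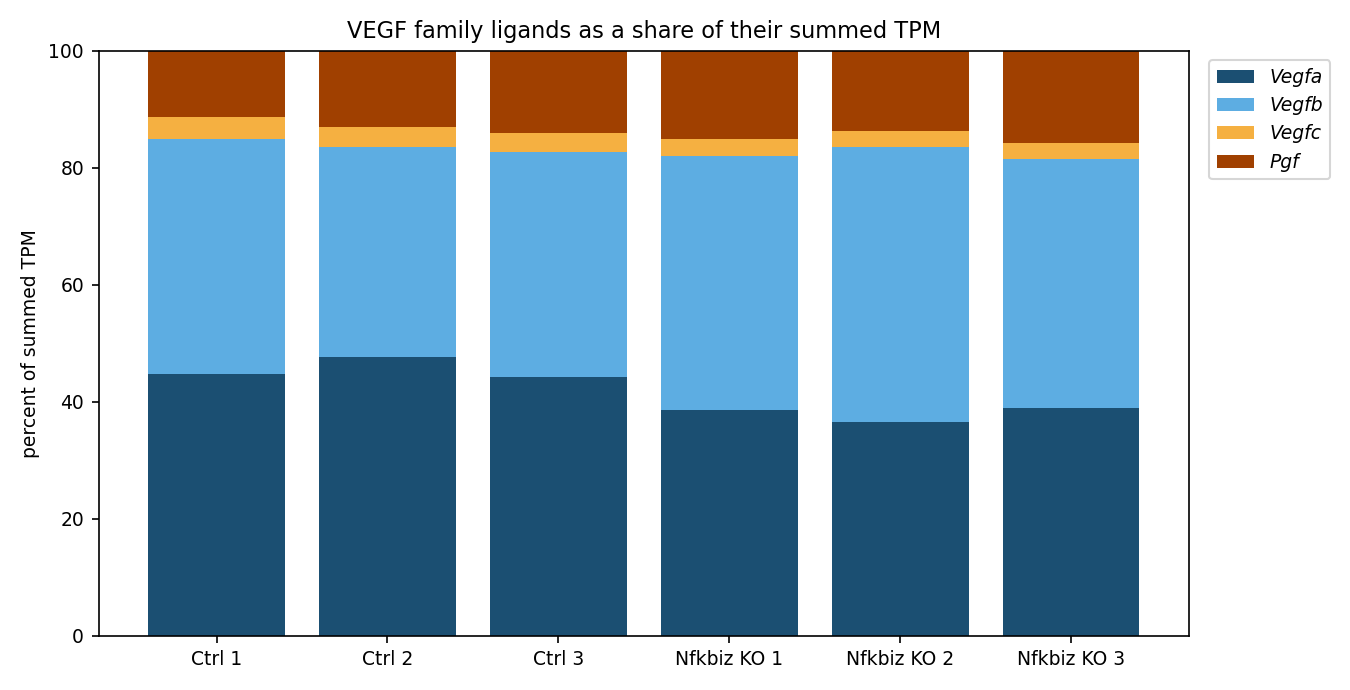
Stacked bars give the percent of the summed TPM of Vegfa, Vegfb, Vegfc and Pgf that each of these ligands took in each of the 6 samples. The Vegfa part is larger than the Vegfb part in the 3 Ctrl samples and smaller in the 3 Nfkbiz KO samples.

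Both peptide hormones of the group fell by more than 2-fold. Adm is a vasodilator and a survival factor for endothelial cells, encoded on chromosome 7 (110226858 to 110229027, plus strand). It was at 28.5, 30.5 and 33.4 TPM in Ctrl against at 12.2, 11.1 and 10.1 TPM in Nfkbiz KO. The lowest Ctrl sample was thus well above the highest Nfkbiz KO sample. Means were 30.8 ± 2.47 TPM in Ctrl against 11.1 ± 1.04 TPM in Nfkbiz KO. From read counts, the log2 fold change was -1.59 (standard error 0.11, edgeR adjusted p = 3.5e-07), the largest of any member above 2 TPM. With each sample left out in turn it stayed between -1.66 and -1.496.

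Apln, which guides the growth and width of new vessels, is on chromosome X (47114019 to 47123775, minus strand). Ctrl samples held 61.1, 63.7 and 60.9 TPM, compared with 27.0, 28.0 and 28.2 TPM in Nfkbiz KO. Within each group the samples were closer together, relative to their mean, than those of Adm. The log2 fold change of Apln was -1.26 (standard error 0.057, edgeR adjusted p = 8.3e-09). The window of Adm shown above held 2 HIF cores, and that of Apln none. That of Vegfb, which did not pass the test, also held 2. Sequence outside these windows was not searched, and GCGTG was found in 32.4% of all windows.

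Esm1 moved in the opposite direction. It encodes endocan, a secreted proteoglycan known as a marker of endothelial tip cells, and lies on chromosome 13 (113346021 to 113354632, plus strand). Its level was 71.0, 80.9 and 82.5 TPM in Ctrl against 189.3, 193.5 and 197.1 TPM in Nfkbiz KO. All Nfkbiz KO samples were more than 2 times as high as any Ctrl sample. The means were 78.1 ± 6.26 and 193 ± 3.91 TPM, and the log2 fold change was 1.21 (standard error 0.070, edgeR adjusted p = 6.8e-08). Of the 10 endothelial markers, 9 were under 1 TPM in all samples, Kdr, Tek and Vwf among them. Only 3 had enough reads to test. Cdh5 was higher in Nfkbiz KO (log2 fold change 1.34, edgeR adjusted p = 0.0023). Mmrn2 (-1.07, edgeR adjusted p = 0.064) and Pecam1 (-0.16, edgeR adjusted p = 0.88) had negative values and did not pass. The part of such markers in the change of Esm1 was not tested.

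Angptl4 had the largest fold change of the 10 at the lowest level. It encodes a secreted inhibitor of lipoprotein lipase that also acts on vessel permeability, on chromosome 17 (33992724 to 34000804, minus strand). Ctrl samples had 63, 43 and 71 reads (1.70, 1.10 and 1.496 TPM), and Nfkbiz KO samples 11, 10 and 14 reads (0.251, 0.254 and 0.313 TPM). The groups were fully separated, but each Nfkbiz KO value rests on few reads. The log2 fold change was -2.36 from read counts (standard error 0.31, edgeR adjusted p = 9e-05) and -0.93 on the scale of log2(TPM + 1), which understates changes of low genes. The difference of its means, -1.16 TPM, was inside the study's minimum of 4.

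The angiopoietins were both low in these cells. Angpt1 (chromosome 15, 42288058 to 42540417, minus strand) had 2.04, 2.58 and 2.25 TPM in Ctrl against 5.07, 4.06 and 4.56 TPM in Nfkbiz KO. All Nfkbiz KO samples were above 4 TPM and all Ctrl samples below 3 TPM. Its log2 fold change was 0.94 (standard error 0.13, edgeR adjusted p = 8.7e-05), on 126 to 344 reads per sample. Angpt2 (chromosome 8, 18739202 to 18791603, minus strand) had 2.00, 1.83 and 1.78 TPM in Ctrl against 2.62, 2.05 and 3.07 TPM in Nfkbiz KO. The Nfkbiz KO samples were spread more widely than the Ctrl samples, and replicate 2 was close to them, just above the highest of them in TPM and within their range on the log2 CPM scale. The log2 fold change of Angpt2 was 0.33 (standard error 0.19, edgeR adjusted p = 0.21), and 93.1% of its reads were unique, the lowest share among the members. The log2 ratio of Angpt2 to Angpt1 was -0.02, -0.49 and -0.34 in Ctrl and -0.95, -0.99 and -0.57 in Nfkbiz KO. Angpt1 thus exceeded Angpt2 in all 6 samples, and the ratio was lower in Nfkbiz KO by a difference of -0.55 with no overlap (exact permutation test, two-sided, p = 0.1, the minimum).

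**Figure D3:**
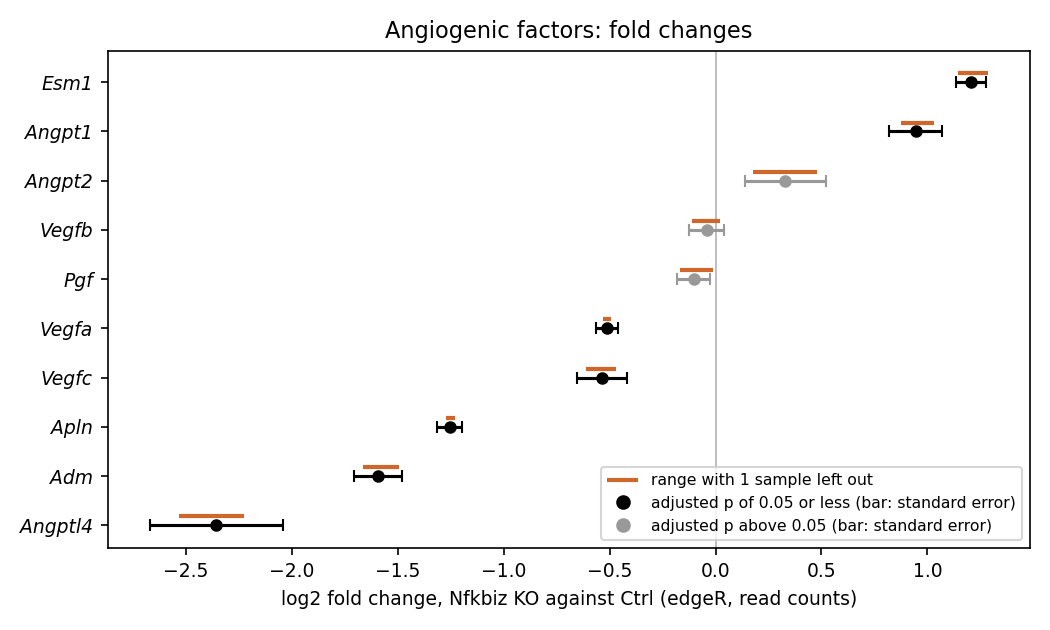
Points give the log2 fold change (Nfkbiz KO against Ctrl, edgeR on read counts) of the 10 angiogenic factors with its standard error, in black at an adjusted p of 0.05 or less and in grey above it. Orange bars give the range when each sample is left out in turn. Estimates run from -2.36 for Angptl4 to 1.21 for Esm1, and of these ranges only that of Vegfb reaches both sides of 0.

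Of the receptors for these ligands, Flt1 and Calcrl were expressed and Kdr, Flt4, Tek, Tie1 and Aplnr were under 1 TPM in every sample, and the co-receptors changed in different directions. Of 11 receptors and co-receptors, 5 could be tested, with 2 higher and 2 lower, beside 18.2% and 18.4% of all genes. Their median log2 fold change was 0.09. The other 6, these low receptors and Ramp2, had too few reads to test. The co-receptor Nrp2, which binds Vegfc and class 3 semaphorins, was at 60.2 ± 4.78 TPM in Ctrl against 94.8 ± 2.51 TPM in Nfkbiz KO (log2 fold change 0.56, edgeR adjusted p = 4.2e-06). Calcrl, the receptor subunit for Adm, went from 6.70 ± 0.889 to 9.58 ± 0.543 TPM (0.41, edgeR adjusted p = 0.0046). Its partner Ramp3 went the other way, from 9.03 ± 1.82 to 4.46 ± 0.425 TPM (log2 fold change -1.14, edgeR adjusted p = 0.00054). Nrp1 was lower by a small margin (log2 fold change -0.25, edgeR adjusted p = 0.025) but overlapped between groups, and passed in 1 of the 6 fits that left out a sample. Flt1, the fifth gene, named as the only one that did not pass, had a log2 fold change of 0.09 (edgeR adjusted p = 0.25) at 30.4 ± 3.79 TPM in Ctrl against 35.2 ± 0.0769 TPM in Nfkbiz KO.

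The next list holds enzymes and cofactors that mature the ligands. Of 6, Pcsk5 was not tested, 2 were higher and 0 lower, beside 18.2% and 18.4% of all genes. Furin, Pcsk7 and Adamts3 passed in neither direction, and the median log2 fold change was 0.13. Ccbe1, a cofactor for the cleavage of Vegfc, was at 12.5 ± 2.01 TPM in Ctrl against 19.4 ± 0.961 TPM in Nfkbiz KO (0.50 on the log2 scale, edgeR adjusted p = 0.00041), against the direction of Vegfc itself. Pam, which amidates peptides such as Adm, had a log2 fold change of 0.15 (edgeR adjusted p = 0.038) and passed in 2 of the 6 fits that left out a sample.

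Other angiogenic ligands were mixed, like the members. Of 22 genes, 20 were tested, and 6 were higher and 9 lower, beside 18.2% and 18.4% of all genes. Their median log2 fold change was -0.26. Those with the largest falls were Efna1, a membrane-bound ephrin (-1.65, edgeR adjusted p = 0.0027), Hgf, the ligand of Met (-1.40, adjusted p = 0.0013), and Edn1, a vasoconstrictor peptide (-0.98, adjusted p = 0.0013), all at under 7 TPM in every sample. Pdgfd, a platelet-derived growth factor, rose the most (0.94, edgeR adjusted p = 0.00057), from 1.70 ± 0.107 to 3.66 ± 0.199 TPM. The angiopoietin-like gene Angptl2 was far more abundant and went from 188 ± 12.5 to 286 ± 1.69 TPM (log2 fold change 0.51, edgeR adjusted p = 1.2e-05), opposite in direction to Angptl4. Angptl6 had 0.66 (edgeR adjusted p = 0.035) and passed in 2 of the 6 fits that left out a sample. The fourth VEGF of mouse, Vegfd, which was outside the group of 10, was at 11.7 ± 1.15 TPM in Ctrl against 13.9 ± 0.706 TPM in Nfkbiz KO and did not pass (0.13, edgeR adjusted p = 0.23).

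Of 15 angiogenesis inhibitors, 11 were tested, with 6 higher and 3 lower, beside 18.2% and 18.4% of all genes. Their median log2 fold change was 0.16. Sema3a, a semaphorin that repels endothelial cells through Nrp1, rose from 37.3 ± 4.51 to 85.5 ± 1.47 TPM (1.09, edgeR adjusted p = 3.9e-08). Sema3f, which binds Nrp2, fell from 20.0 ± 2.09 to 8.30 ± 0.377 TPM (-1.37, edgeR adjusted p = 5.6e-08). The angiostatic chemokine Cxcl10 rose from 523 ± 32.6 to 1149 ± 67.3 TPM (1.04, edgeR adjusted p = 6.6e-08), and the protease Adamts1 from 25.8 ± 2.79 to 41.8 ± 0.672 TPM (0.61, edgeR adjusted p = 1.1e-05). The thrombospondins Thbs2 (-0.74, edgeR adjusted p = 7.1e-07) and Thbs1 (-0.32, adjusted p = 0.0033) were lower. Nrp2, Sema3a, Sema3f and Cxcl10 are also among the genes listed by the study from these samples.

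Genes of the hypoxia pathway, the known upstream regulator of several members, were lower wherever they passed the test. Of 10 HIF subunits and hydroxylases, 9 were tested, 0 were higher and 6 lower, beside 18.4% of all genes lower. Their median log2 fold change was -0.50, and Arnt, Egln2 and Hif1an did not pass. Hif1a, the oxygen-regulated subunit, had 200 ± 21.9 TPM in Ctrl against 99.7 ± 2.39 TPM in Nfkbiz KO (-1.10, edgeR adjusted p = 4.5e-08). Its paralog Epas1 fell from 10.7 ± 0.988 to 4.71 ± 0.399 TPM (-1.28, edgeR adjusted p = 5.6e-07). Egln3, a prolyl hydroxylase that marks HIF for degradation and is itself a HIF target, fell from 251 ± 10.0 to 100.1 ± 5.47 TPM (-1.42, edgeR adjusted p = 4.9e-09). The other lower genes were Egln1 (-0.56, edgeR adjusted p = 2.2e-05), Vhl (-0.50, adjusted p = 0.00017) and Arnt2 (-0.29, adjusted p = 0.045). Arnt2 overlapped between groups and passed in 1 of the 6 fits that left out a sample. Both HIF subunits and hydroxylases that act against HIF were thus lower.

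All 20 HIF target genes on a list without members of the group were tested, and 19 of them were lower, 0 higher, with a median log2 fold change of -0.74, beside 18.4% of all genes lower. The exception was Pfkfb3, a glycolytic regulator, at 0.20 (edgeR adjusted p = 0.26). Without Ctrl replicate 1, 19 were again lower and the median was -0.79. Lox, an enzyme that cross-links collagen, fell from 28.4 ± 2.94 to 5.70 ± 0.123 TPM (-2.40, edgeR adjusted p = 3.2e-10). P4ha2, a collagen prolyl hydroxylase, fell from 56.6 ± 3.19 to 22.0 ± 1.34 TPM (-1.47, edgeR adjusted p = 6.3e-09). Car9, a carbonic anhydrase, had 30, 40 and 72 reads in Ctrl and 0, 0 and 3 reads in Nfkbiz KO, a ratio of 47.7 for the reads summed per group and scaled by depth (95% exact interval 16.0 to 234, counting error only). Several genes of both HIF lists, Hif1a, Epas1 and Lox among them, were listed by the study from these samples and are not independent evidence of this direction. The lists moved with Vegfa, Vegfc, Adm, Apln and Angptl4 and against Esm1 and Angpt1, and their part in the members' changes was not tested.

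**Figure D4:**
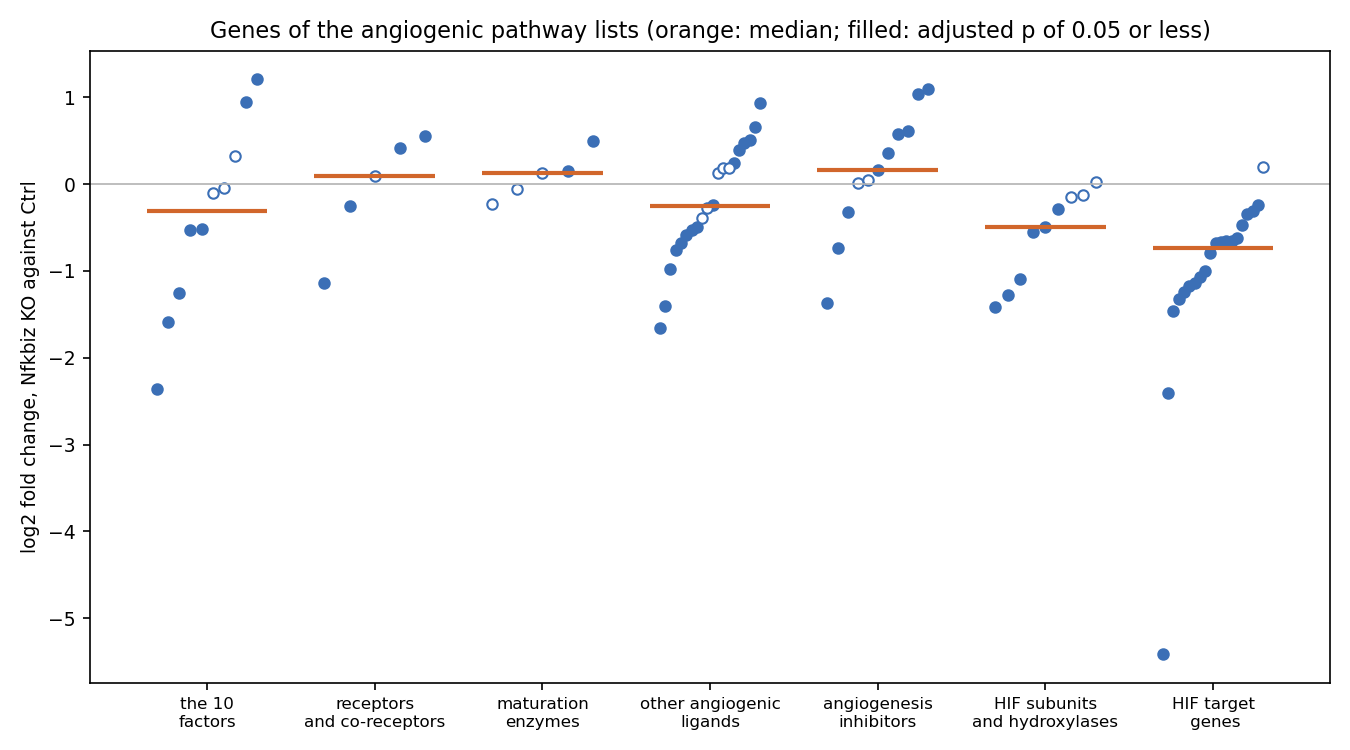
Each point is 1 tested gene of the 10 angiogenic factors or of a pathway list, at its log2 fold change (Nfkbiz KO against Ctrl, edgeR on read counts), filled at an adjusted p of 0.05 or less, and orange lines give the list medians. Receptors, ligands and inhibitors lie on both sides of 0, whereas the HIF target genes, with a median of -0.74, lie below 0 except for Pfkfb3. The lowest point is Car9, whose fitted value rests on 3 reads in Nfkbiz KO and is no bound.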

How the data were processed

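RNA of 3 Ctrl and 3 Nfkbiz KO samples of D4M-3A cells was sequenced as paired reads. Mapping was done by the authors in CLC Genomics Workbench. They deposited 1 gene table per sample, with total and unique gene reads as raw counts, and with TPM and RPKM values based on exon reads. Decimal commas were converted. The methods name build GRCm39 and the labels GRCm38. The tables hold symbols only, and coordinates are from GENCODE on GRCm39. Reads were counted on both strands, so overlapping antisense genes cannot be told apart. The authors call the replicates independent experiments, and the labels name no batch.

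Total gene reads were tested with edgeR 4.0.16 (R 4.3.3): TMM, filterByExpr (minimum count 10, minimum total 15), quasi-likelihood fit without covariates, and Benjamini-Hochberg adjustment over 14419 genes. A simulation with the depths of these samples, on 14383 genes, recovered 97.5% of 200 changed genes. Its changes were all 2-fold or larger, and every gene had the same dispersion. Recovery of smaller changes, such as those of Vegfa and Vegfc, was not tested. Single values were compared by a two-sided exact permutation test in scipy 1.17.1. Depth was 32219900 to 44927203 gene reads, and 96.5% to 96.9% of them were unique.

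The members and the lists were chosen with earlier results of these data known. From each list, up to 3 genes per direction with the largest fold change at an adjusted p of 0.05 or less are named, and other list genes were named after their values were seen. Alternatives were DESeq2 1.42.0, RLE factors, no filter, unique reads, limma 3.58.1 on log2(TPM + 1) and log2(TPM + 0.1), a replicate block, each sample left out, other units of the difference minimum, and RPKM or a pseudocount for shares and ratios. The study's human cells and tumors were not used here.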

Additional observations from a re-analysis of the deposited data

How the results depend on the processing

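The counts of 2 members higher and 5 lower were obtained under every alternative, including the fit with the replicate block (5087 genes called in all, against 5274 without it). Same-numbered samples did not visibly deviate together (correlations 0.037, -0.023 and 0.026). This does not show whether they were run as pairs, because the larger scatter of the Ctrl samples could hide a shared part. By the study's criteria 3 members were called under every alternative except without the difference minimum, which gave 4, Angptl4 being the addition. Over the members' log2 fold changes, 125 alternatives kept direction and side of the threshold and 5 changed sign. Vegfb came to 0.0632 with limma on log2(TPM + 1) and 0.0638 on log2(TPM + 0.1), and ranged from -0.11 to 0.0221 with each sample left out, being above 0 only without Nfkbiz KO replicate 3. Pgf came to 0.0615 and 0.0635 on these TPM scales. Neither gene passed in any of these fits. On the 2 TPM scales the median of all genes was 0.06 and 0.08. The pathway lists gave 12 to 17 genes higher and 32 to 39 lower. Depth limits Angptl4 most, at 10 to 14 reads in Nfkbiz KO.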

Other observations

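Further groups of secreted factors on the ligand list, chosen after their values were seen, also changed. Platelet-derived growth factors recruit the mural cells that cover vessels. Pdgfb went from 35.5 ± 3.01 to 22.2 ± 1.92 TPM (SD, n = 3, log2 fold change -0.76, edgeR adjusted p = 8.8e-06), and Pdgfa from 129 ± 20.7 to 96.6 ± 7.59 TPM (-0.53, edgeR adjusted p = 0.0022), whereas Pdgfd was higher in every Nfkbiz KO sample. The matricellular proteins Ccn1 and Ccn2 were both lower. Ccn1 went from 438 ± 26.8 to 313 ± 16.5 TPM (-0.59, edgeR adjusted p = 3.2e-06), and Ccn2 from 98.7 ± 7.41 to 74.6 ± 6.89 TPM (-0.50, edgeR adjusted p = 0.00017). Among the inhibitors, Serpinf1, which encodes pigment epithelium-derived factor, was at 286 ± 4.76 TPM in Ctrl against 459 ± 17.7 TPM in Nfkbiz KO (0.58, edgeR adjusted p = 4.2e-06), a level above that of every one of the 10 members in both groups.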
